A study of Rattus norvegicus with 6 samples.

Results

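miR-132 and miR-212 are microRNAs (miRNAs, short RNAs that silence messenger RNAs) cut from neighbouring hairpins of one transcript. Both array names of the pair, rno-miR-132 and rno-miR-212, were followed through all 6 arrays. They are 2 of the 677 rat miRNAs on the array and 2 of the 148 that were bright enough to be tested. The pair was selected on measured values of these same arrays, because miR-132 had the smallest p of all tested miRNAs under loading. Their change under loading is therefore given here as a description, with standard errors and without p-values.

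The RNA came from rat tendon-derived stem cells (rTDSCs), clonogenic cells grown out of the patellar tendons of 8-week-old male Sprague Dawley rats and used at passage 3. The mechanical loading group (n = 3) was stretched along one axis on flexible collagen-coated plates, with 10% elongation at 0.5 Hz for 8 h per day over 7 days. The non-loading group (n = 3) was kept static for 7 days. Total RNA of each sample was labelled with Cy3 and hybridised to an Agilent rat miRNA array (v16.0). The sources used here do not say whether the 3 samples of a group came from separate animals or cultures, so the spread between them may be technical.

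The pair is known for its link to CREB, a transcription factor that is switched on by phosphorylation after cyclic AMP, calcium or growth factor signals. CREB binds near the start of the gene, so transcription of the precursor follows stimulation of the cell, and miR-132 is a classical activity-dependent miRNA of neurons. In neurons it acts on the messenger RNA of p250GAP, which restrains Rac and so the growth of dendrites. Neither CREB nor any messenger RNA was measured on these arrays.

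A miRNA chooses its targets mainly through its seed, bases 2 to 8. The mature sequences are shown first because the pair has the same seed and could therefore act on largely the same messenger RNAs. They were taken from RefSeq (assembly GRCr8), and capitals mark the seed.
rno-miR-132-3p: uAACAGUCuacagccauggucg
rno-miR-212-3p: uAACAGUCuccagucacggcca
Among the 724 mature rat miRNAs in the RefSeq table these were the 2 with the seed AACAGUC. The array names without an arm were taken as these 3p arms. The opposite, 5p arms were taken as the array names miR-132* and miR-212*, and carry other seeds, again in capitals.
rno-miR-132-5p: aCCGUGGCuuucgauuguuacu
rno-miR-212-5p: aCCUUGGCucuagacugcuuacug
Next, capitals mark the positions at which the pair differs, counted from 1 at the 5′ end.
miR-132-3p: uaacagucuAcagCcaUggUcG
miR-212-3p: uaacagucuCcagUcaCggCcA
The first 9 bases are identical, and 17 of 22 positions are identical in all. From miR-132 to miR-212 the substitutions are A10C, C14U, U17C, U20C and G22A, all in the part of the molecule beyond the seed. The deposited files list no probe sequences. How far each probe tells the pair apart was not tested.

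In GRCr8 both lie on the plus strand of chromosome 10, with miR-212-3p at chr10:60521811-60521832 and miR-132-3p at chr10:60522091-60522112. The stretch between them is 258 bases long. The Mir132 hairpin, at chr10:60522033-60522133, is given with its 5p and then its 3p arm in capitals, as the precursor from which the brighter member is cut.
Mir132: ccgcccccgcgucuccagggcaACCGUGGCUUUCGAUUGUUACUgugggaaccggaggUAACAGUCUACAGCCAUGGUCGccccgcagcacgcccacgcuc
The array's own annotation refers to the older build rn4, and no coordinate was taken from it.

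miR-132 had a clear signal on every array and was higher on each loading array than on each non-loading array. Signals are given in percent of the array's 75th percentile, taken over the 173 probes detected on all 6 arrays, so that arrays of unequal brightness can be compared. miR-132 stood at 55.0%, 54.0% and 51.8% of that percentile in non-loading replicates 1, 2 and 3, and at 78.2%, 76.5% and 74.2% in loading replicates 1, 2 and 3. The groups did not overlap, and within each group the 3 samples lay close together. The mean was 53.6% ± 1.66 (SD, n = 3) without loading and 76.3% ± 2.05 (SD, n = 3) with loading. On the log2 scale the means were -0.90 ± 0.04 and -0.39 ± 0.04, and the change was 0.51 with a standard error of 0.07, or 1.42-fold. The lowest loading value lay 0.43 above the highest non-loading value on this scale, several times the spread within either group. In bulk RNA of a culture, more cells of a type and more RNA per cell cannot be told apart.

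miR-212 was much nearer to background, and its groups overlapped. It stood at 9.63%, 6.10% and 3.57% of the 75th percentile in non-loading replicates 1, 2 and 3, and at 8.26%, 11.0% and 7.51% in loading replicates 1, 2 and 3. Non-loading replicate 1 was above loading replicates 1 and 3, and non-loading replicate 3 was the lowest of all arrays. The means were 6.43% ± 3.04 and 8.94% ± 1.86 (SD, n = 3 each). In log2 they were -4.07 ± 0.72 and -3.50 ± 0.29, and the change of 0.57 had a standard error of 0.37. That change was smaller than the SD of the non-loading group. The value of 0.57 describes the summed signal only and is not read as a fold of miR-212. The reason is that 1 of its 2 probes was near background throughout and 1 array carries much of the change. Without non-loading replicate 3 the change of the sum was 0.19, and without non-loading replicate 1 it was 0.92. The brighter probe alone changed by 0.50 with a standard error of 0.30, and it was not detected on non-loading replicate 3.

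**Figure D1:**
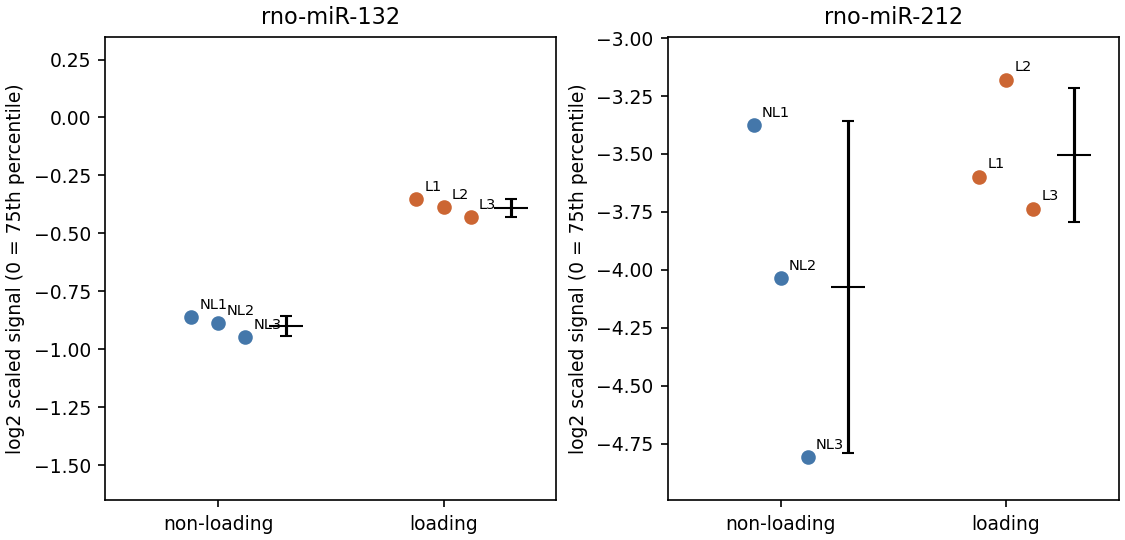
Log2 scaled signal of miR-132 (left) and miR-212 (right) on each array, where 0 is the array's 75th percentile; NL is non-loading, L is loading, and the black bars give the mean ± SD of 3 arrays. Both axes span the same range, and the miR-132 groups lie apart while those of miR-212 overlap.

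The scanner software's own estimates tell the same difference in precision. Its total gene signal for miR-132, in intensity units before scaling, was 108.2, 116.0 and 126.7 on non-loading arrays 1 to 3 and 176.0, 136.6 and 166.1 on loading arrays 1 to 3. The error it attached to these values was between 8.10% and 8.46% of the signal on every array. For miR-212 the total gene signal was 18.9, 9.79 and 7.65 on non-loading arrays and 18.6, 14.7 and 16.8 on loading arrays. Its error ranged from 11.7% of the signal on loading replicate 1 to 31.3% on non-loading replicate 3. By total gene signal, non-loading replicate 1 was the highest of the 6 arrays for miR-212, whereas by the scaled sum of its probes loading replicate 2 was the highest.

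The arrays differed in brightness. The 75th percentile used for scaling was an intensity of 275.1, 304.1 and 362.2 on the non-loading arrays and 319.3, 262.6 and 324.4 on the loading arrays. Non-loading replicate 3, where miR-212 was lowest, had the highest percentile and the fewest detected miRNAs, 140. Loading replicate 2, where scaled miR-212 was highest, had the lowest percentile and 145 detected miRNAs. The other arrays detected 153 and 176 (non-loading replicates 1 and 2) and 186 and 178 (loading replicates 1 and 3). Between these ends the orders differed, since non-loading replicate 2 had the second-lowest miR-212 but not the second-highest percentile. The part of array brightness in the values of miR-212 was not tested.

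The probe-by-probe comparison separates the bright from the dim member further. Each miRNA was read by 2 probes, and each probe was printed in 10 spots per array, so 60 spots of each probe were available. The brighter miR-132 probe read 42.7%, 41.6% and 40.0% of the 75th percentile on the non-loading arrays and 60.0%, 58.9% and 57.3% on the loading arrays. All 60 of its spots were well above background by the scanner's own test, and its groups did not overlap. The change was 0.50 on the log2 scale with a standard error of 0.06.

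The dimmer miR-132 probe read 12.3%, 12.4% and 11.8% on the non-loading arrays and 18.2%, 17.6% and 16.9% on the loading arrays. Its groups did not overlap either, and 59 of 60 spots were well above background. The change was 0.53 with a standard error of 0.07. The 2 probes of miR-132 thus gave changes of 0.50 and 0.53. Both read the same RNA samples, so these standard errors do not measure how well the probes match. The groups lay apart in the same direction in 28 of the 194 probes that were fitted, 14.4%, and nothing is read from these 2 probes against that share because the pair was chosen on the same contrast.

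The brighter miR-212 probe read 6.64%, 4.56% and 3.13% on the non-loading arrays and 6.14%, 8.21% and 5.26% on the loading arrays. Only loading replicate 2 was above every non-loading array. On non-loading arrays 21 of its 30 spots were well above background, with 1 of 10 on non-loading replicate 3, and on loading arrays 30 of 30 were. The probe was detected on 2 of 3 non-loading arrays and on 3 of 3 loading arrays. The scanner's call for the miRNA as a whole was nevertheless detected on all 6 arrays. Its change of 0.50 had a standard error of 0.30.

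The dimmer miR-212 probe was not well above background on any array of either group, and no fold is given for it. Its mean intensity was 8.21, 4.70 and 1.59 on the non-loading arrays and 6.75, 7.43 and 7.28 on the loading arrays. Only 3 of its 60 spots were well above background. For comparison, the negative-control spots, which match no rat RNA, had mean intensities from 2.84 to 4.09. The dimmer probe lay from 0.57 SD below to 1.86 SD above the negative-control mean of its array, and the brighter miR-212 probe from 3.91 to 8.97 SD above it. The brighter miR-132 probe was between 49.7 and 104.5 SD above. The probes of the undetected 5p arms lay at -1.21 to -3.02 SD, so the negative-control mean is not the lowest level on an array.

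**Figure D2:**
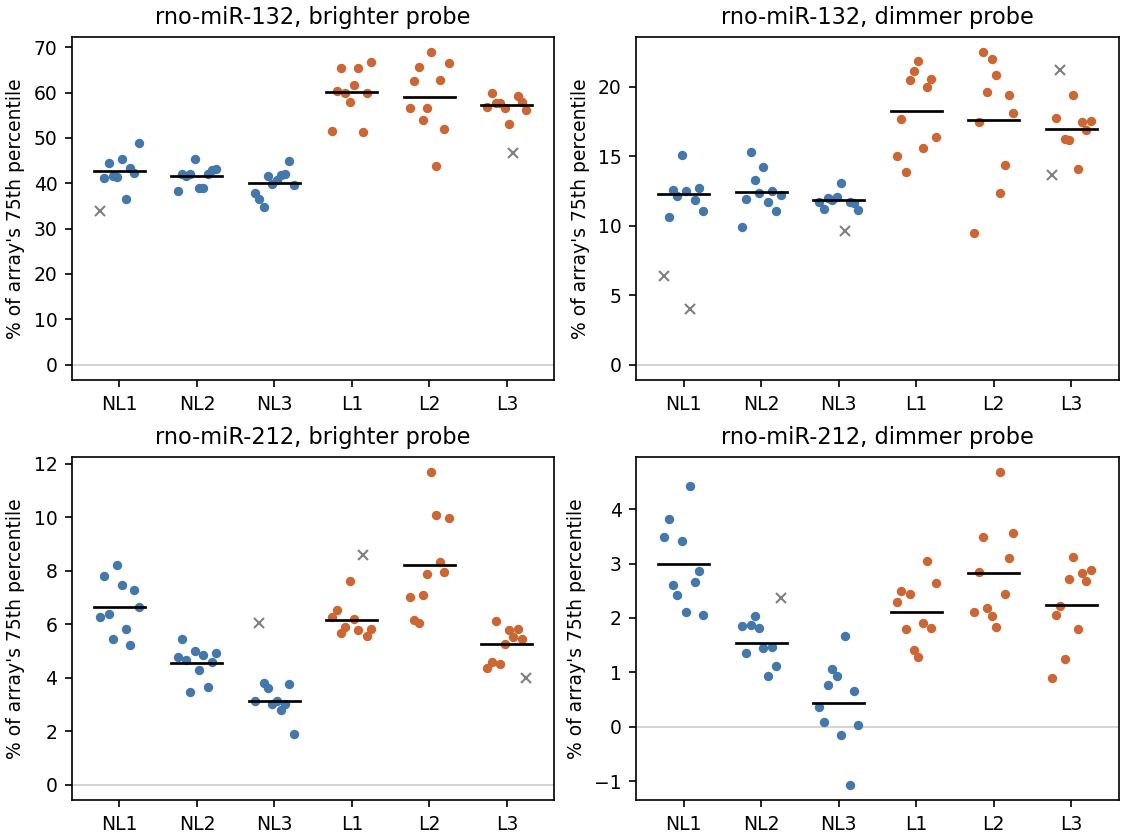
Every spot of the 4 probes of miR-132 (top) and miR-212 (bottom) on each array, in percent of the array's 75th percentile, with NL for non-loading, L for loading, crosses for spots flagged as outliers and left out, and black lines for the mean of the rest. The vertical scales differ between panels, and on non-loading replicate 3 the dimmer miR-212 probe lies near 0 while the brighter one is at 3.13%.

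A spot sits at the same place on all 6 arrays, so each position can be compared with itself. Positions of 1 probe share the same RNA and are not replicates. For the brighter miR-132 probe the loading mean exceeded the non-loading mean at 10 of 10 positions, by ratios from 1.31 to 1.56 with a median of 1.42, outlier-flagged spots left out. The dimmer miR-132 probe did so at 10 of 10 positions as well, with ratios from 1.13 to 1.60 and a median of 1.51. The brighter miR-212 probe was higher under loading at 9 of 10 positions, but the ratios were wider, from 0.869 to 1.79 with a median of 1.34. These ratios are not exact, since their non-loading means include non-loading replicate 3, where the probe was not detected. The loading and non-loading arrays did not overlap at 10 positions of the brighter miR-132 probe, at 8 of the dimmer one and at 1 of the brighter miR-212 probe. Counts by position were not made for the rest of the array. Over whole probes, the groups lay apart in this direction in 28 of the 194 fitted, 14.4%. The pair was chosen on this contrast, so none of these counts is read as a result.

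The opposite arms of both hairpins were on the array but gave no signal. miR-132* and miR-212* were each read by 2 probes, and neither was detected on any of the 6 arrays. Of the 60 spots of each of these 4 probes, 1 spot of a miR-212* probe was well above background and none of the others was. All probe means lay at or below the negative-control mean of their array, the highest by -1.21 SD and the lowest by -3.02 SD. The 3p arm was therefore the measurable product of both hairpins, and a change of the 5p arms could not be read on these arrays.

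The changes of the bright and the dim member could not be told apart. Within each array, the log2 signal of miR-132 minus that of miR-212 was 2.52, 3.15 and 3.86 without loading and 3.24, 2.79 and 3.30 with loading. A brightness factor common to an array cancels in this difference. The means were 3.17 ± 0.67 and 3.11 ± 0.28 (SD, n = 3 each). The change of miR-132 minus that of miR-212 was thus -0.06, with a standard error of 0.42. It is not read as an exact difference, since the miR-212 sum includes a probe not well above background on any array. With the brightest probe of each miRNA it was 0.008, and that miR-212 probe was not detected on non-loading replicate 3. The standard error of 0.42 was nearly as large as either change, so the arrays cannot show whether the pair moved by equal amounts.

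Against all 148 tested miRNAs, miR-132 stood near the top by size of change as reported, and the pair differed in precision. The change of miR-132 exceeded that of 98.0% of tested miRNAs as reported, of 93.9% with total gene signal and of 79.7% with normexp. Without loading replicate 2, when 175 miRNAs were tested, it exceeded 93.1%. The change of miR-212 is given no rank or percentile, since it sums in a probe not well above background on any array. It also moved most with the background correction, to -0.54 with normexp and to 0.09 with normexp after outlying background was replaced. Without loading replicate 2 it was 0.40, and without non-loading replicate 3 it was 0.19. The standard error of miR-212 was the 11th highest of 148, that of miR-132 was 0.07, and the median over all tested miRNAs was 0.12. The median change of all tested miRNAs was 0.06. Groups that did not overlap, with loading higher, were found for 19 of 148 miRNAs, 12.8%, and miR-132 is 1 of them. The opposite pattern was found for 4. In limma with Benjamini-Hochberg adjustment 0 of 148 miRNAs passed 0.05, 0%, while the methods' test on the same values, adjusted likewise, gave 2. In limma at an unadjusted p below 0.05 13 were higher, 8.78%, and 1 was lower, a split that was 8 and 9 after quantile normalization. The pair was chosen on this contrast, so its place in these counts is not a result.

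**Figure D3:**
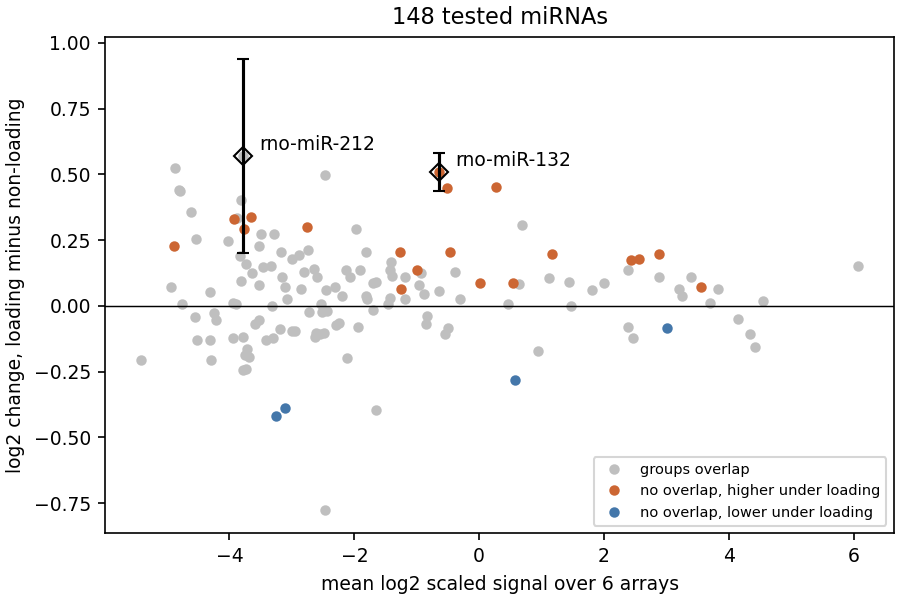
Log2 change (loading minus non-loading) against mean log2 scaled signal for all 148 tested miRNAs, coloured by whether the 3 arrays of each group overlap, with miR-132 and miR-212 as diamonds with their standard errors. miR-132 lies high, with a short error bar, and miR-212 lies among the dim miRNAs with a long one.

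Just behind miR-132 in the order of p came miR-221, with a change of 0.45 and a standard error of 0.07, and miR-222, with a change of 0.30 and a standard error of 0.08. These share a cluster on another chromosome and restrain the cell cycle inhibitor p27.

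Position on the slide was partly tied to the groups. All 6 arrays were on 1 slide with 1 scan. The 3 non-loading arrays and loading replicate 1 were in row 1, and loading replicates 2 and 3 were in row 2. Within row 1 the change of miR-132 was 0.55. Within slide column 1 it was 0.48 and within column 2 it was 0.46, with 1 array of each group per column. For miR-212 these values were 0.48, 0.20 and 0.30. Each of these values has loading higher, but 1 array stands for at least 1 group in each.

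The miRNAs that varied most like miR-132 over the arrays were not those that varied most like miR-212. The likeness of other tested miRNAs was measured as the Pearson correlation of log2 signals over the same 6 arrays, with no p, since all points share their array and its scaling. For miR-132 this order largely restates the contrast on which the pair was chosen, and it is not a separate result. Its log2 values spanned only 0.09 without and 0.08 with loading, beside a change of 0.51. miR-221 followed miR-132 most closely, with r = 0.996 (Spearman's rho 0.943). After it came miR-31 (r = 0.947), miR-222 (r = 0.933), miR-322 (r = 0.908) and miR-107 (r = 0.899). miR-212 was only the 33rd of 147 in this order, with r = 0.619. miR-221 stood at 103.8%, 105.6% and 100.9% of the 75th percentile without loading and at 147.3%, 140.7% and 137.0% with loading, so its groups also lay apart.

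The miRNAs nearest to miR-212 were others. They were miR-290 (r = 0.990), miR-188 (r = 0.970), miR-672 (r = 0.949), miR-211* (r = 0.949) and miR-342-3p (r = 0.924), all low on non-loading replicate 3. miR-290 stood at 15.4%, 12.9% and 10.3% without loading and at 13.9%, 16.4% and 13.3% with loading. In these values, as in those of miR-212, loading replicate 2 was highest, non-loading replicate 1 came next and non-loading replicate 3 was lowest. miR-132 was the 50th of 147 in the order of likeness to miR-212. Among the 74 tested miRNAs below the median level, 44 had their lowest value on non-loading replicate 3, and among the 74 above it 33 did.

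**Figure D4:**
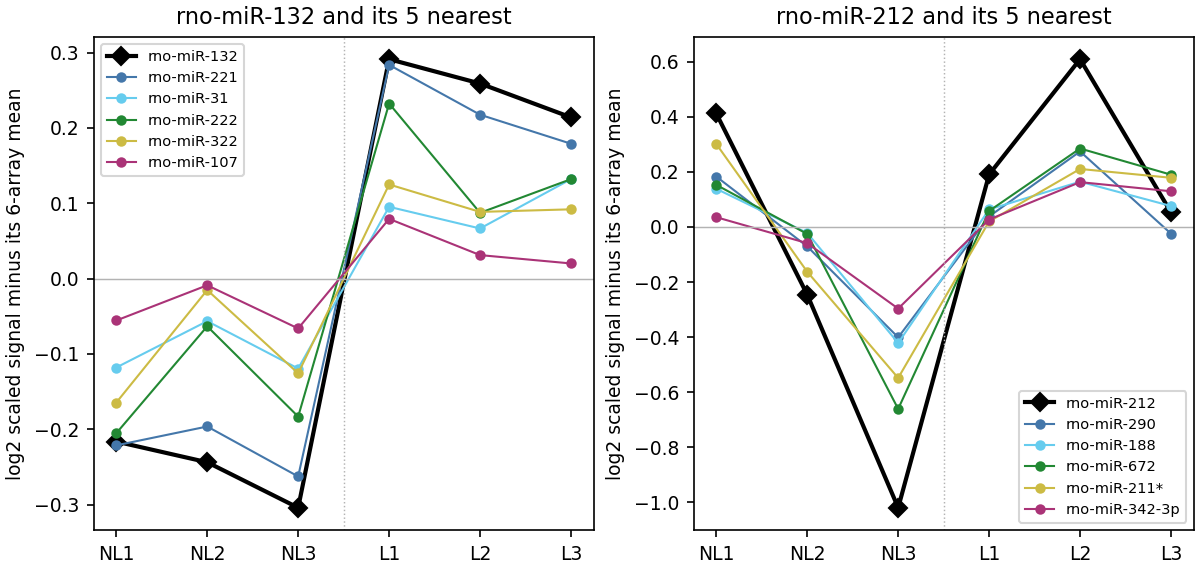
Log2 scaled signal minus its mean over the 6 arrays for miR-132 (left, black) and miR-212 (right, black), each with the 5 tested miRNAs of highest correlation; NL is non-loading and L is loading. The miRNAs nearest to miR-132 step up between the groups, and those nearest to miR-212 dip on non-loading replicate 3.

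With the group means taken out, the likeness describes only the variation among samples of one group. The highest of 147 correlations over 6 arrays can be large without any shared variation, so the names below are a description. The 5 nearest to miR-132 were then miR-652* (r = 0.984), miR-20b-5p (r = 0.875), miR-497 (r = 0.870), miR-1949 (r = 0.860) and miR-221 (r = 0.847), and miR-212 was the 12th with r = 0.772. For miR-212 they were miR-290 (r = 0.994), miR-150* (r = 0.989), miR-320 (r = 0.960), miR-188 (r = 0.959) and miR-345-5p (r = 0.956), and miR-132 was the 41st. These deviations were small for miR-132, whose values spanned 0.09 without and 0.08 with loading on the log2 scale, against 1.43 and 0.56 for miR-212.

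Other miRNAs tied to CREB or to activity-dependent transcription were looked at in the same way. The list held 9 names, all on the array, of which 5 were detected on all 6 arrays and 4 on none. Of all 677 miRNAs on the array, 133 were detected on all 6 arrays and 487 on none. Those not detected were miR-219, whose transcription is also linked to CREB, miR-134 and miR-381, from the large imprinted cluster driven by Mef2, and miR-124, a neuronal miRNA that acts on CREB messenger RNA. Beside the pair, the detected members were miR-379 and miR-329, from the same imprinted cluster, and miR-34b, which also acts on CREB messenger RNA. The change of miR-379 was -0.10 (standard error 0.10), that of miR-329 was -0.16 (0.18) and that of miR-34b was 0.08 (0.13). Of these 3, 0 had an unadjusted p below 0.05, beside 14 of all 148 (9.46%), so the count tells nothing about them, and their adjusted p in limma lay between 0.724 and 0.824. The median change of these 3 was -0.10, beside 0.06 for all tested miRNAs.

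miRNAs raised by interleukin 1 or NF-kB signalling were looked at because such signals can also act on CREB. Of 5 names 4 were matched on the array and 3 were tested. miR-146a changed by -0.09, miR-146b by -0.08 and miR-21 by 0.15, with adjusted p between 0.709 and 0.869 in limma, and miR-147 was not detected. Of these 3, 0 had an unadjusted p below 0.05, again beside 9.46% of all tested miRNAs.

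miRNAs of the cell type named in the labels were bright. Of 8 miRNAs typical of mesenchymal cells and fibroblasts, 7 were detected on all 6 arrays and miR-145 on 3. Of all 677 miRNAs, 133 were detected on all 6 arrays. Their summed signal was 13465%, 14381% and 13257% of the 75th percentile without loading and 14243%, 14597% and 14743% with loading. miR-21 had the brightest signal, which does not rank amounts, since different probes read different miRNAs. Because miR-132 is best known from neurons, neuronal miRNAs were also summed. miR-124, miR-9, miR-9*, miR-137 and miR-153 were detected on no array, as were 487 of all 677 miRNAs. miR-128 was detected on all 6 arrays and miR-129 on 5. The sum over these 7 was 27.6%, 24.5% and 22.0% without loading and 23.8%, 22.7% and 24.3% with loading, with most of it from miR-128. The part of neuronal cells in the values of the pair was not tested.

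Markers of other cell types were at or near background. None of 6 muscle, 7 epithelial and 1 liver miRNAs was detected on any array. Most miRNAs of the array, 487 of 677, were likewise detected on none, so these counts alone say little. Of 6 blood miRNAs only miR-223, of myeloid cells, was detected, on 5 arrays, and the summed blood signal was 7.73%, 8.92% and 4.48% without loading and 9.26%, 7.72% and 9.47% with loading. Of 2 endothelial names miR-126 was detected on all 6 arrays and miR-126* on none, with sums of 5.24%, 4.95% and 2.77% without loading and 5.35%, 3.95% and 5.73% with loading. Both sums were lowest on non-loading replicate 3, as miR-212 was. That array was also lowest for 44 of the 74 tested miRNAs below the median level and 33 of the 74 above it. The part of blood and endothelial cells in the values of the pair was not tested.

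The direction of the miR-132 change depended on 1 background correction, and the separation of its groups on that and on 1 scaling. Under all planned settings but one the log2 change of miR-132 was above 0. With normexp, a background model fitted to the raw spot and local background intensities, it was -0.041 beside a median change of -0.45 over all miRNAs, and that of miR-212 was -0.54. The miR-132 groups then overlapped, as they did with the scaling percentile taken over all probes, where the change was 0.36 with a standard error of 0.34. Under the other planned settings they did not overlap. With outlying local background values replaced before the same model, the changes were 0.33 for miR-132 and 0.09 for miR-212. The dim member moved more when 1 array was left out, from 0.19 to 0.92, whereas miR-132 stayed between 0.47 and 0.53 under the same omissions. This did not hold for every setting. Quantile normalization moved miR-132 from 0.51 to 0.37 and miR-212 from 0.57 to 0.49. With total gene signal they were 0.41 and 0.53.

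**Figure D5:**
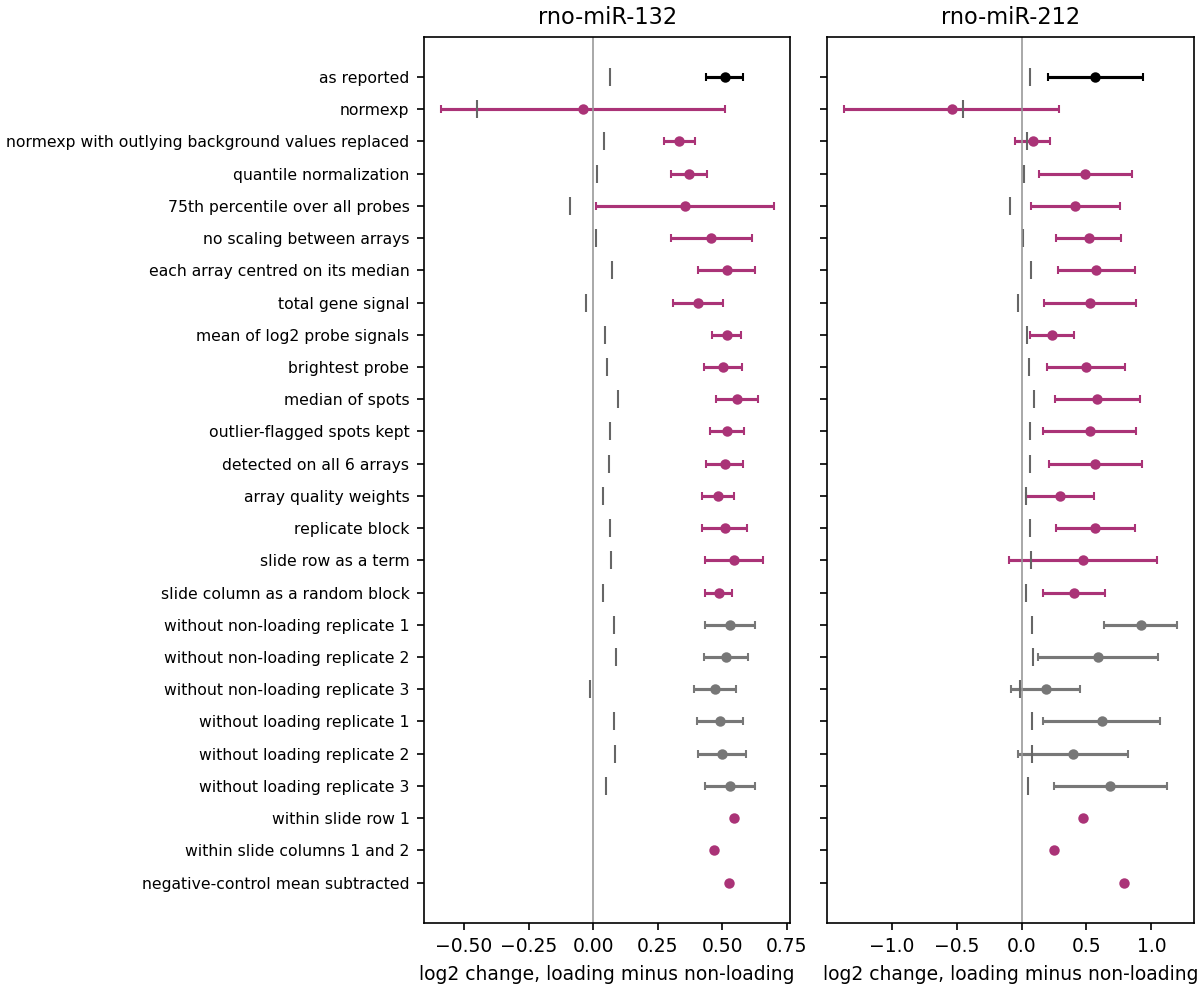
Log2 change (loading minus non-loading) of miR-132 (left) and miR-212 (right) as reported (black), under other processing (purple) and without 1 array (grey), with standard errors where a model was fitted and short grey ticks for the median change of all tested miRNAs. The horizontal scales differ, and normexp is the setting that takes both changes below 0.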

How the data were processed

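The 6 1-colour Agilent rat miRNA arrays (v16.0) comprised 3 per group. The authors deposited scanner output from Feature Extraction 10.7.3.1 per the file headers, and the intensity of each spot (background-subtracted signal, linear scale, not normalized between arrays) was used. The deposited series table held the same intensity values, with a largest difference of 0. Control spots and outlier-flagged spots (2.93% to 4.17% per array) were left out, and no spot was saturated. Spots were averaged per probe and scaled to the 75th percentile that each array had among probes seen on every array. A probe counted as detected with 50% or more of its spots well above background. Probes were summed per miRNA, values below 1.87% of the percentile were set to it (5 of 888 values), and log2 was taken. For miRNAs the scanner's own detection call was used. The 148 miRNAs detected throughout 1 or both groups were tested with lmFit and eBayes in limma 3.58.1 (R 4.3.3), without covariates. The script was tested on simulated data. The members, lists and tests were chosen with earlier results of these data known. Named were the pair, its opposite arms, the list members and the 5 miRNAs of highest likeness. The number of arrays limits the precision. Replicate numbers were not used as pairs in the main fit. Between arrays of equal number, deviations from group means correlated at -0.69, -0.47 and 0.11. Such correlations cannot show whether these arrays shared an animal or culture.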

Additional observations from a re-analysis of the deposited data

How the results depend on the processing

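For miR-132 the change of 0.51 became 0.33 with normexp after outlying background was replaced, 0.37 with quantile normalization, 0.36 with the scaling percentile taken over all probes (standard error 0.34, groups overlapping), 0.46 with no scaling, 0.41 with the total gene signal, 0.56 with the median of spots and, chosen after seeing the data, 0.47 within slide columns 1 and 2. Normexp alone gave -0.041, with overlapping groups, and for miR-212 -0.54. With the replicate block the change of miR-132 was 0.51 (standard error 0.09). For miR-212, 0.57 became 0.23 with probes averaged in log2, 0.30 with array weights and 0.25 within slide columns 1 and 2. With the negative-control mean subtracted, also chosen after seeing the data, it became 0.79. The difference between both changes, -0.06, became 0.50 with normexp, was above 0 in 7 of 20 alternatives and ran from -0.39 to 0.28 when 1 array was left out. The count of 0 miRNAs past an adjusted p of 0.05 became 2 with probes averaged in log2, the brightest probe, outlier spots kept, detection on all 6 arrays, a robust trended prior, the methods' test, array weights and slide column as a random block. The count of 14 at an unadjusted p became 0 with normexp, 8 after replacement, 1 (lower) with all probes, 4 without scaling (3 higher, 1 lower), 8 with total gene signal (3 higher, 5 lower), 6 with the replicate block and 7 with slide row as a term. Quantile normalization gave 8 higher and 9 lower, and centring on the median 9 and 2, against 13 and 1. Without 1 array the count ran from 6 (without loading replicate 3) to 17, and was 7 without loading replicate 1. Without non-loading replicate 3 it was 10, with 5 higher and 5 lower, and the median change of all miRNAs was -0.01. The causes were not tested. The dimmer miR-212 probe was not well above background on any array.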
